A study of Rattus norvegicus with 2 samples.

Results

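The immune and blood-cell miRNAs were followed in the nucleus accumbens (NAc) of rats that had received alcohol. They were chosen by name, as rno-miR-21, rno-miR-142-3p, rno-miR-142-5p, rno-miR-144, rno-miR-146a, rno-miR-150, rno-miR-155, rno-miR-223 and rno-miR-451, without the passenger strands whose names end in a star. Of these 9, 8 were measured by a probe of that name among the 349 rat miRNA probes, and rno-miR-155 was not analysed here. The animals were 18 male Sprague-Dawley rats of 150 to 180 g. One group was injected intraperitoneally with 500 µl of saline (vehicle) 2 times per day and the other with alcohol at 1 g/kg, equally often, and the NAc, core and shell together, was taken after 7 days. The deposited data hold 1 single-colour array for each group, and although the study names 9 rats a group, whether their RNA was pooled for the array is not given in the sources used here. Differences between the groups therefore come without replicates and without any test across rats, treatment and array cannot be told apart, and an SD given with a ratio below covers only the 9 differences between spots of a probe at the same position of the arrays.

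A miRNA guides Argonaute proteins to mRNAs that pair with its seed, bases 2 to 8, and thereby lowers their stability or translation. miR-142, miR-223, miR-150 and the miR-144 and miR-451 cluster are background markers of blood cells: miR-142 of nearly all white cells, miR-223 of neutrophils and other myeloid cells, miR-150 of mature lymphocytes, and miR-144 with miR-451 of red cells and their precursors. miR-21, miR-146a and miR-155 are induced in inflammation, also in microglia and astrocytes, with miR-146a acting in a feedback loop that lowers the adaptors IRAK1 and TRAF6 after NF-kappaB signalling. Whether rats were perfused to clear blood from the brain is not given in the sources used here.

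The sequences that the array lists as targets of the 8 probes are shown to make clear how far these miRNAs can be told apart. They run 5′ to 3′, with the seed in capitals.
miR-21: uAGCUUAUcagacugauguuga
miR-146a: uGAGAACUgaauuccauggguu
miR-150: uCUCCCAAcccuuguaccagug
miR-142-5p: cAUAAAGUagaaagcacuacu
miR-142-3p: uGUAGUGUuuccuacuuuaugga
miR-223: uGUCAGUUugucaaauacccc
miR-144: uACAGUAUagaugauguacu
miR-451: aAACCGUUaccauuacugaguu

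The 8 seeds were all different, so no pair of them shares a seed family. The targets had 20 to 23 bases. GC content ranged from 30% in miR-144 to 54.5% in miR-150, against a median of 47.8% in the 150 miRNAs detected on both arrays and 46.7% in the 152 detected on neither. Among all other probes, only that for miR-146b shared a seed with any of the 8. It is shown because the pair is compared below.
miR-146a: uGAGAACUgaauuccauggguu
miR-146b: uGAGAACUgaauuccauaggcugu

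Counted from the 5′ end without gaps, miR-146b differs from miR-146a by G18A and U21C and is 2 bases longer. Of the 8 targets, 7 were identical to a mature rat sequence of RefSeq (build GRCr8), the exception being miR-150, for which the gene table gave the position of Mir150 alone. The 8 miRNAs come from 7 genes, 5 of them on chromosome 10. Mir144 (chr10:63459397-63459479) and Mir451a (chr10:63459569-63459640) lie on the plus strand with 89 bases between them. Mir21 (chr10:71902600-71902691) and Mir146a (chr10:28349996-28350090) lie on the minus strand, and Mir142 (chr10:73055104-73055190) on the plus strand. By position, with strand not compared, Mir146a overlaps the long noncoding RNA LOC134480673 and Mir142 the protein-coding gene Tspoap1. Mir223 (chrX:65151383-65151492) likewise overlaps the long noncoding RNA LOC120099372, and Mir150 is at chr1:104741487-104741571. Both arms of the miR-142 hairpin had a probe of their own, so this 1 precursor was read at 2 places, in capitals here.
Mir142: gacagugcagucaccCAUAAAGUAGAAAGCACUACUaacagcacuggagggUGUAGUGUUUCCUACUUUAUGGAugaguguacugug

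Values are spot densities, the mean brightness of a spot before any background subtraction, in arbitrary units. The floor differed between the arrays. The 88 spots of mismatched control probes had a median density of 241 in vehicle and 144.8 in alcohol, and empty spots one of 202 and 141. Detection required that 5 or more of the 9 spots lay over the mismatched median by 3 median absolute deviations (MAD), which set the limit at 278 in vehicle and 179 in alcohol. The 150 miRNAs detected on both arrays were brighter on the alcohol array, with a median density of 1951 against 952. After background correction and cyclic loess normalization of the arrays their median log2 ratio of alcohol over vehicle was -0.07. Densities of different probes are not compared as amounts, since each probe binds with its own strength.

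Of the 8 miRNAs, 3 were detected, namely miR-150, miR-21 and miR-146a, each on all 9 spots of both arrays. On the vehicle array 43.3% of all 349 probes were detected and on the alcohol array 56.2%, against 3 of 8 here on each. The other 5 were detected on neither array, and they were the miRNAs of red cells (miR-144 and miR-451), of white cells in general (both arms of miR-142) and of myeloid cells (miR-223). miR-150 was the only blood-cell marker detected, while neither arm of miR-142, which marks nearly all white cells, was. The blood-cell part of the name is therefore not borne out by the other markers in these NAc samples. Whether the signal of miR-150 came from blood cells was not tested. In bulk tissue, fewer cells of a type and less RNA per cell cannot be told apart.

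**Figure D1:**
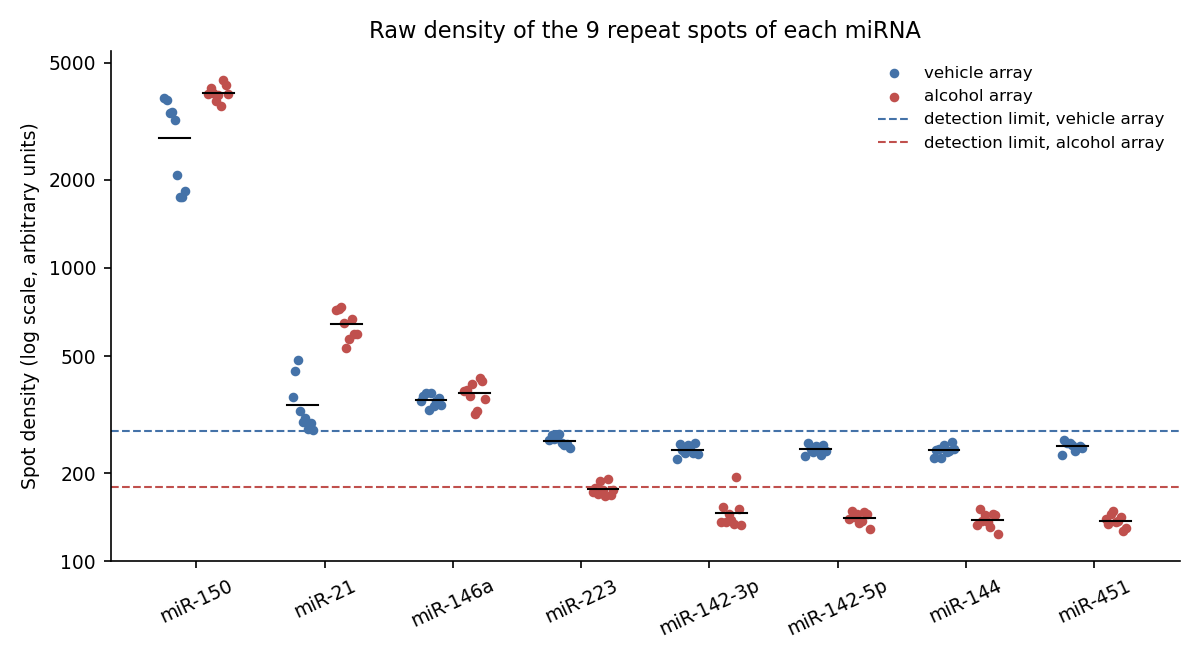
Raw density (log axis, arbitrary units) of each of the 9 repeat spots of the 8 miRNAs on the vehicle array (blue) and the alcohol array (red). Black bars are means and dashed lines the detection limits of 278 (vehicle) and 179 (alcohol). All spots of miR-150, miR-21 and miR-146a lie above the limit of their array, and the spots of the other 5 lie at or near the floor.

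The red-cell pair was at the floor on both arrays. The 9 spots of miR-144 had densities from 225 to 256 (median 239) on the vehicle array and from 124 to 150 (median 137) on the alcohol array. Those of miR-451, an unusual miRNA that Argonaute itself cuts from its hairpin, ran from 231 to 260 (median 247) and from 127 to 149 (median 138). None of the spots of either passed its limit. All vehicle spots of both miRNAs were brighter than all of their alcohol spots, as were the mismatched controls by their medians. The mean of miR-451 minus the mismatched median of the same array was 5.36 units in vehicle and -7.09 units in alcohol. On the alcohol array the median of miR-451 exceeded 27 of the 88 mismatched spots, and on the vehicle array 60 of 88.

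The miR-142 arms behaved alike. The spots of miR-142-5p ran from 229 to 253 (median 241) in vehicle and from 129 to 149 (median 142) in alcohol, with 0 of 9 above the limit on each. Those of miR-142-3p ran from 223 to 253 (median 239) and from 133 to 194 (median 138). A single alcohol spot of miR-142-3p, at 194, passed the limit, and the next brightest was 153. Both arms thus read as background at every position but that one, and neither has a ratio that can be read as a change.

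miR-223 came closest to the limit among the 5. Its spots ran from 243 to 272 (median 259) on the vehicle array, all below the limit of 278 and brighter by their median than 79 of the 88 mismatched spots. On the alcohol array they ran from 167 to 192 (median 175), and 2 of 9 passed the limit of 179. With a limit at 2 MAD instead of 3, miR-223 was detected on the alcohol array and not on the vehicle array. Its mean stood 16.9 units over the mismatched median in vehicle and 31.2 units in alcohol. Since it was not detected on either array by the rule used, no fold is given for it or for the other 4.

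miR-150, which in lymphocytes restrains the transcription factor Myb, was the one miRNA of the blood-cell markers with a clear signal. Its vehicle spots ran from 1741 to 3793 (median 3196) and its alcohol spots from 3562 to 4374 (median 3921). The arrays overlapped in this range, since 2 vehicle spots were brighter than the dimmest alcohol spot. After normalization the signal was 3033 in vehicle and 3195 in alcohol. The log2 ratio was 0.08 ± 0.56 (SD over 9 spots), with 4 of 9 positions higher on the alcohol array. The SD was several times the ratio.

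The spread came from the vehicle array and followed position. The repeat spots of each probe lie in 3 blocks of 3 spots along the array. On the vehicle array the mean density of miR-150 was 3636 in the upper block, 2887 in the middle block and 1773 in the lower block, whereas on the alcohol array it was 3988, 3712 and 4168. The lower block held 48.8% of the upper-block density on the vehicle array, the fifth steepest fall among the 150 miRNAs detected on both arrays, whose median change was -0.20 on the log2 scale. On the alcohol array the lower block held 104%. When the arrays were normalized within each block, a choice made after seeing the values, the log2 ratio of miR-150 was -0.20 in the upper, -0.12 in the middle and 0.55 in the lower block. The vehicle signal of miR-150 and its ratio therefore depend on which spots are read. The cause of the fall along the vehicle array was not tested.

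**Figure D2:**
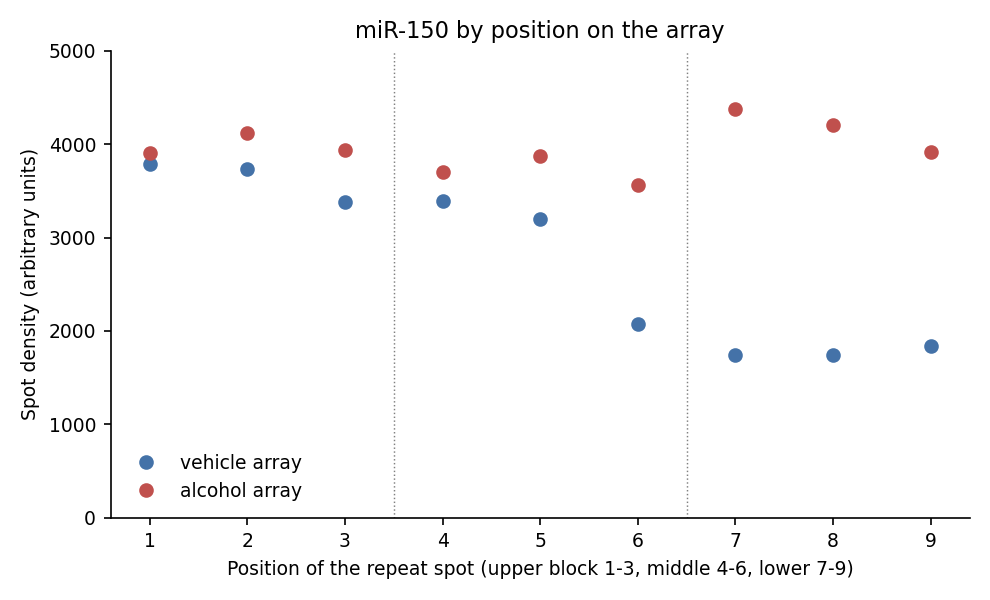
Raw density of miR-150 (linear axis from 0, arbitrary units) at each of its 9 spot positions on the vehicle array (blue) and the alcohol array (red), with dotted lines between the blocks of the array. The alcohol spots stay between 3562 and 4374, and the vehicle spots fall from 3793 at position 1 to 1741 at position 7.

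miR-21, a miRNA raised in many inflamed or injured tissues, was the only one of the 8 that passed the 1.3-fold threshold with a normalized signal of 400 or more on the brighter array. Its vehicle spots ran from 280 to 485 (median 308) and its alcohol spots from 532 to 734 (median 651), so that before normalization every alcohol spot was brighter than every vehicle spot. The dimmest vehicle spot, at 280, lay just above the limit of 278. After normalization the signal was 296 in vehicle and 400.3 in alcohol, with spots from 221 to 514 and from 326 to 466, which overlapped. The log2 ratio was 0.44 ± 0.33 (SD over 9 spots), or 1.35-fold, and 8 of 9 positions were higher on the alcohol array. This fold is on normexp signals with an offset of 50, which understates changes of dim miRNAs. Its normalized alcohol signal was barely over the minimum of 400 used for the count of changed miRNAs.

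The size of the difference in miR-21 also varied along the array. Its mean vehicle density was 431 in the upper, 310 in the middle and 286 in the lower block, and its mean alcohol density 725, 585 and 620. Normalized within blocks, the log2 ratio was 0.11, 0.57 and 0.68. The ratio was positive in each of the 17 processing settings other than the main one, from 0.11 to 1.77. It also stayed above the median of the 150 detected miRNAs in all 17, by 0.15 to 1.33 on the log2 scale. A constant scaling of an array cannot move this difference. The settings that scale by a constant, and the one without normalization, therefore share the value 0.90 and are not separate results.

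miR-146a had nearly equal raw densities on the arrays. The vehicle spots ran from 329 to 376 (median 352) and the alcohol spots from 317 to 420 (median 381), and they overlapped. Against the lower floor of the alcohol array, the mean lay 230 units above the mismatched median there and 113 units above it on the vehicle array. After normalization, which took the general brightness of the alcohol array into account, the signal was 311 in vehicle and 223 in alcohol. The log2 ratio was -0.48 ± 0.22 (SD over 9 spots), or 71.8% of vehicle, and 0 of 9 positions were higher on the alcohol array. The normalized spots, from 278 to 341 and from 183 to 259, did not overlap, which held for 1 of the 3 detected members and for 34.7% of the 150 miRNAs detected on both arrays. This was past 1.3-fold, but both signals were under 400, so miR-146a was not among the miRNAs counted.

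The direction of miR-146a depended on the scaling. Its log2 ratio was 0.42 without normalization between the arrays, 0.72 when they were scaled to 5S rRNA probes and 0.14 when scaled to the matched spike controls, and it was negative in the other 14 settings, down to -0.80. Relative to the median of the 150 detected miRNAs it was lower in all 17, by 0.15 to 0.67. Here too the settings that scale by a constant, and the one without normalization, share 1 value, 0.15, and are not separate results. Position had little bearing on it, with -0.43, -0.45 and -0.52 in the upper, middle and lower block.

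Its near-twin miR-146b, which comes from another gene and shares the seed, gave a different picture. The vehicle spots of miR-146b ran from 363 to 417 (median 404) and the alcohol spots from 599 to 764 (median 683), with no overlap before normalization. Its normalized signal was 392 in vehicle and 417 in alcohol, and its log2 ratio 0.09 ± 0.16 (SD over 9 spots). This ratio exceeded that of miR-146a by 0.57 ± 0.15 (SD over 9 spots), and it did so at 9 of 9 positions. A constant scaling of an array cannot move this difference, which was 0.76 without normalization and between 0.40 and 0.76 in the 17 settings. Binding of either miRNA to the probe of the other was not tested.

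Across the list, 2 of the 8 miRNAs reached the detection and signal needed for the count, and of these 1 passed 1.3-fold upward with alcohol and 0 passed it downward. Of all 125 miRNAs that met the same conditions, 26.4% were higher and 20.8% lower, so 1 of 2 says nothing particular about the list. The median log2 ratio of the 3 detected miRNAs was 0.08, against -0.07 for all 150 miRNAs detected on both arrays, whose SD across miRNAs was 0.67. Each of the 3 ratios lay within that SD of the general median.

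**Figure D3:**
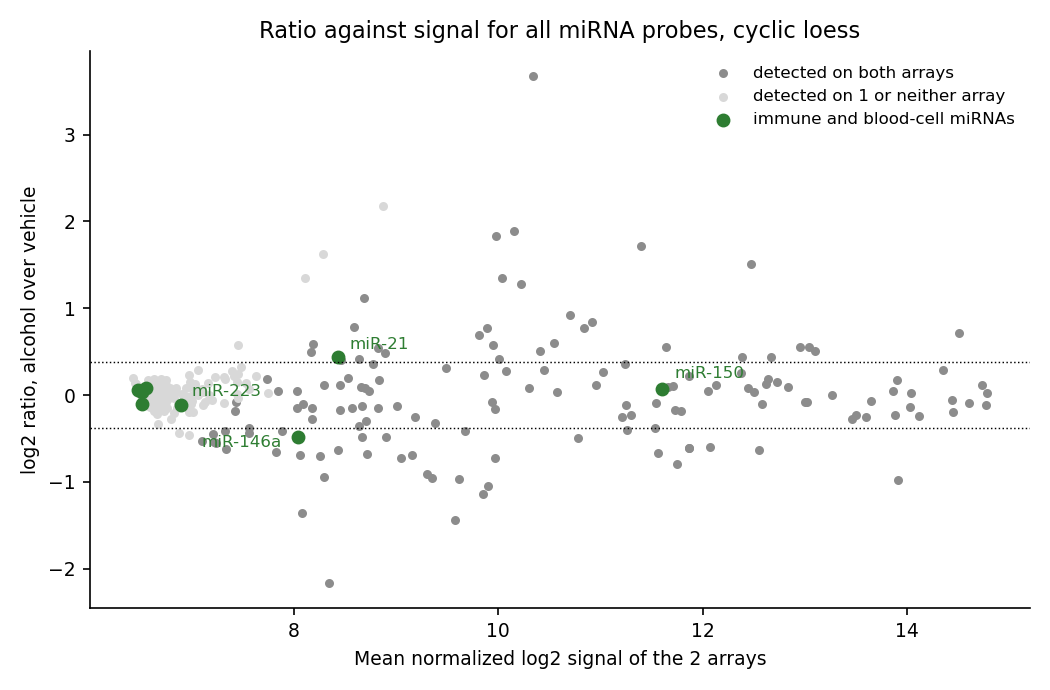
The log2 ratio of alcohol over vehicle against the mean normalized log2 signal of the arrays for 349 miRNA probes, with the 8 immune and blood-cell miRNAs in green and dotted lines at 1.3-fold. miR-21 lies just above the upper line at 0.44, miR-146a below the lower line at -0.48, and miR-150 near 0 at 0.08, while the 5 undetected miRNAs sit at the dim end.

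**Figure D4:**
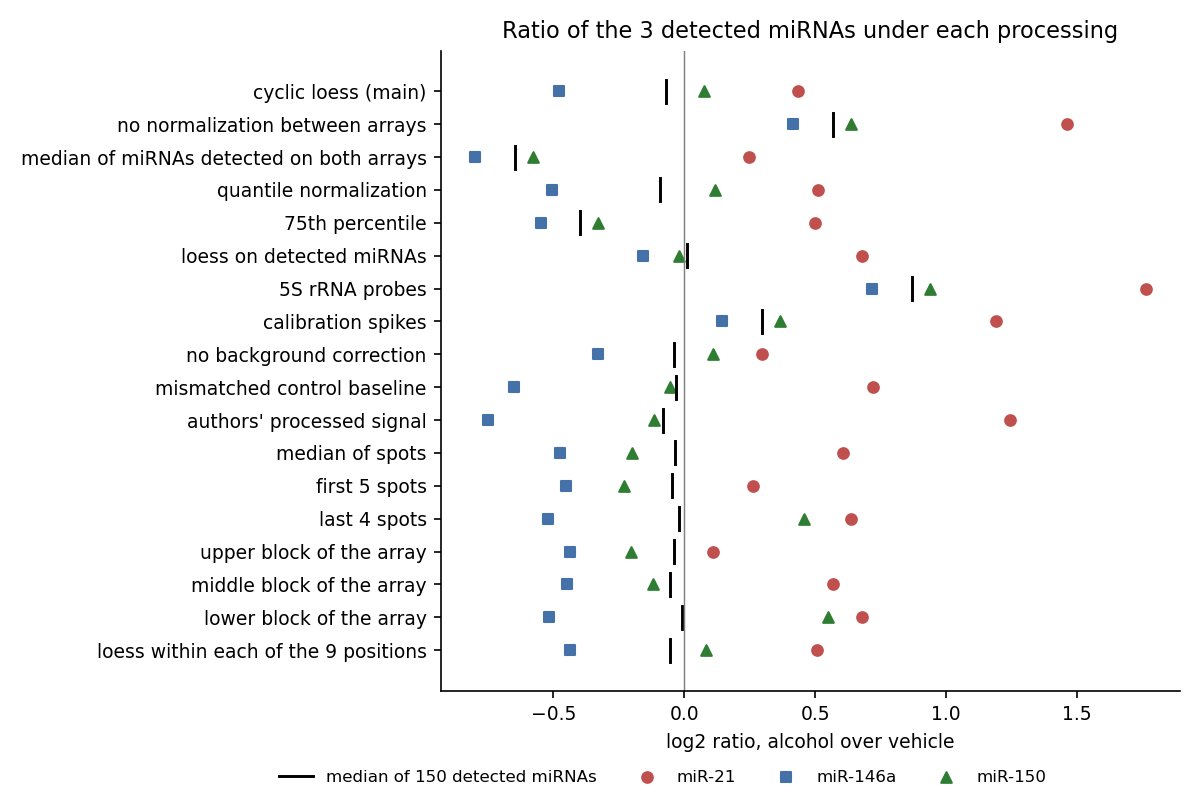
The log2 ratio of miR-21 (red), miR-146a (blue) and miR-150 (green) under the main processing and 17 other settings, with the median of the 150 detected miRNAs as a black bar. miR-21 lies above the bar and miR-146a below it in every setting shown, and miR-150 lies on either side.

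Markers of other cells of the NAc were read in the same way. All 5 neuronal miRNAs of the list (miR-124, miR-9, miR-128, miR-138 and miR-137) and all 3 of vessels (miR-126, miR-143 and miR-145) were detected on both arrays. The endothelial miR-126 had a mean density of 6104 in vehicle and 7856 in alcohol, and its log2 ratio was 0.16 ± 0.15 (SD over 9 spots). Those of miR-143 and miR-145 were 0.23 ± 0.14 and 0.60 ± 0.28, the latter past 1.3-fold and larger than the ratio of miR-21. Among the neuronal miRNAs, miR-9 at 0.72 ± 2.58 and miR-137 at 0.55 ± 0.16 were past 1.3-fold, and the other 3 lay between -0.18 and 0.03. The direction of all 5 neuronal miRNAs was not fixed. Over the settings the log2 ratios of miR-9 and miR-137 ran from -0.83 to 2.12 and from -0.52 to 1.00. The 2 oligodendrocyte miRNAs of the list, miR-219-5p and miR-338, were detected on the alcohol array alone. Other probes of these names differed. miR-219-2-3p and miR-338* were detected on both arrays, with log2 ratios of -0.25 and -0.72, and miR-219-1-3p on neither. Of all 196 miRNAs detected on that array, 150 were detected on both. Mean densities of miR-338 were 252 and 847, with a log2 ratio of 1.63 ± 0.22, and those of miR-219-5p were 262 and 222, with a ratio of 0.00 ± 0.26. The vehicle side of both ratios was near the floor, so neither ratio is a measured fold. The summed raw density, floor included, of the 3 vessel miRNAs was 7888 in vehicle and 11880 in alcohol. That of the 2 oligodendrocyte miRNAs was 513 and 1069, the former without a detected miRNA. Such sums are not amounts, since the floor and the general brightness differed between the arrays. The part of vessels and oligodendrocytes in the ratios of miR-21 and miR-150 was not tested.

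A wider list of 25 other miRNAs tied to blood or immune cells in background knowledge had 23 with a probe, of which 21 were detected on both arrays, against 150 of all 349 probes. These miRNAs were not chosen as restricted to such cells, so their detection does not gauge blood or immune cells in the samples. The median log2 ratio of the 21 was 0.08, from -0.68 to 0.69. Of the 19 that met the conditions for the count, 1 was higher and 3 were lower, beside 26.4% and 20.8% of all 125. The highest ratios were those of miR-92a, a member of the miR-17-92 family that is rich in red cells, at 0.69 ± 0.36, and miR-29a at 0.29 ± 0.08 (SD over 9 spots each). The lowest were those of miR-34a, a target of p53, at -0.68 ± 0.14, and miR-93 at -0.48 ± 0.11. Without normalization between the arrays miR-34a and miR-93 were at 0.22 and 0.66, so their direction was not fixed. That of miR-29a was not fixed either, with log2 ratios from -1.20 to 0.41 over the 17 settings, while miR-92a stayed between 0.45 and 1.96.

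By distance over the normalized log2 signals of the 2 arrays, the miRNAs outside the list nearest to miR-21 were miR-411, at 0.05, and miR-369-5p, at 0.22. Those nearest to miR-146a were miR-34a, at 0.15, and miR-31, at 0.23, and those nearest to miR-150 were miR-328, at 0.02, and miR-27b, at 0.08. A likeness over 2 arrays says only that the brightness and the ratio were similar.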

How the data were processed

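The authors deposited, for each array, the intensity of every spot as a mean pixel density without background subtraction, and 1 processed intensity per probe after a cyclic normalization whose tool is not given in the sources used here. Background correction of the densities used normexp (offset 50, over all 3968 spots) from limma 3.58.1 under R 4.3.3. Repeat spots were averaged on the log2 scale, and the arrays were normalized by cyclic loess (span 0.7, 3 iterations) over 349 miRNA probes. Spot SDs are of the log2 differences between spots at the same position. A miRNA was counted as changed when detected on at least 1 array, with the brighter of the normalized signals reaching 400 and a difference of at least 1.3-fold. Sequences and positions came from the deposited probe list and from RefSeq tables of GRCr8. Background correction, cyclic loess and the calls of detection and fold were tested on simulated arrays. Recovery of dim miRNAs near 1.3-fold was not tested. The members, lists, detection rule and thresholds were chosen with earlier results of these data known. Text names all members, the 2 highest and 2 lowest of the wider list, and the 2 nearest in level. With 1 array per group there is no test, and the number of arrays limits the precision. Other settings numbered 17, of which 4, by position on the array, were added after the values had been seen.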

Additional observations from a re-analysis of the deposited data

How the results depend on the processing

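No paired analysis was possible because a group consists of 1 array, and leaving out a replicate was not possible for the same reason. The count of members at least 1.3-fold higher, 1 in the main setting, was 2 without normalization and with 5S rRNA probes. It was 0 with scaling to the median of detected miRNAs, no background correction, the first 5 spots and the upper block of 3 spots. In these settings miR-21 was under 1.3-fold, with log2 ratios of 0.25, 0.30, 0.26 and 0.11. The count was also 0 with quantile normalization, the mismatched control baseline, the authors' processed signal and the middle block of 3 spots. There miR-21 was past 1.3-fold, with log2 ratios of 0.51, 0.72, 1.24 and 0.57, but did not meet the other conditions for the count. The authors' processed signal of miR-21 was 126 in vehicle and 300 in alcohol, under the minimum signal of the main setting. In these settings with a member count of 0, the miRNAs higher over the whole array ran from 17 of 123 (scaling to the median) to 31 of 136 (no background correction). A threshold of 1.5-fold or 2-fold, or a minimum signal of 800, likewise gave 0. For these thresholds the counts over all miRNAs are not given here. The count of members lower, 0 in the main setting, was 1 with scaling to the median (miR-150), with no minimum signal and with a minimum of 200 (miR-146a in both). The median log2 ratio of the 3 detected members, 0.08, was 0.64 without normalization, -0.58 with scaling to the median and 0.94 with 5S rRNA probes. Over all miRNAs the counts of 33 higher and 26 lower became 85 and 8, 17 and 79, and 100 and 2 in these 3 settings, and 63 and 23 with the calibration spikes. Members detected on the vehicle array numbered 3, and 8 by a limit of 3 SD above the mean of empty spots, a rule that called 348 of 349 probes there. On the alcohol array the number was 3 by that rule, which called 184 of 349 probes there, and 4 at 2 MAD, which called 207. miR-21 was above 0 in all 17 other settings, miR-146a in 3 and miR-150 in 8. The causes were not tested. Members near the floor have only a bound.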

Other observations

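Markers of tissues that lie outside the NAc were read as a gauge of other cells in the samples. The muscle miRNAs miR-1 and miR-206 and all 3 epithelial miRNAs (miR-200a, miR-200c and miR-141) were detected on neither array, while miR-133a was detected on the vehicle array with 5 of 9 spots above the limit and on the alcohol array with 0. The liver miRNA miR-122 was detected on both arrays, at a mean density of 611 in vehicle and 286 in alcohol. Of the choroid plexus pair, miR-211 was detected on neither array, and miR-204 on the alcohol array alone, with 9 of 9 spots above the limit against 3 of 9 on the vehicle array. The mean density of miR-204 was 276 in vehicle and 1568 in alcohol. Since the former was near the floor, no fold is given. The epithelial miRNAs had 0 of 9 spots above the limit on either array, as did miR-144, miR-451 and miR-142-5p, whereas on the alcohol array miR-142-3p had 1 and miR-223 had 2.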
